A study of Mus musculus with 12 samples.

Results

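Choroid plexus genes were followed in whole brains of Il18 knockout and wild-type BALB/c mice. Il18 encodes interleukin-18, a cytokine of innate immunity. The 10 genes Ttr, Kl, Aqp1, Cldn2, Kcne2, Folr1, Clic6, Otx2, Slc4a5 and Sostdc1 were chosen by name as genes known for their expression in the choroid plexus, and every probe carrying one of these names was taken. They make up 10 of the 26497 genes tested, and they have 14 probes, of which 13 passed the filter on dim probes. Total RNA was measured on 12 Agilent one-colour arrays, 1 per animal, in 4 groups of 3: untreated Il18 knockout (KO) and untreated wild type (WT), each at 6 weeks and at 12 weeks of age. The labels give the knockout no further allele and name no sex. The brains had been kept in RNAlater before extraction, and no label says how they were cut or which meninges, pituitary or ventricular tissue stayed attached.

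The choroid plexus is a frond of epithelium and vessels in the brain ventricles. Its epithelial cells secrete cerebrospinal fluid, seal blood off from that fluid with tight junctions, and carry hormones and vitamins across. Ttr, which encodes the thyroxine carrier transthyretin, is its best known transcript and marks the tissue in whole-brain RNA. Folr1 encodes a folate receptor that brings folate into the fluid, and Kl encodes klotho, a co-receptor of a fibroblast growth factor. Aqp1 encodes a water channel, Slc4a5 a sodium bicarbonate cotransporter, Kcne2 an accessory subunit of potassium channels and Clic6 a chloride intracellular channel protein. Cldn2 encodes a tight-junction protein that forms pores for cations and water, Otx2 a homeodomain transcription factor needed to form and keep the tissue, and Sostdc1 a secreted antagonist of BMP and Wnt signals.

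The probes are short DNA sequences of 60 bases, and each reads a single stretch of its transcript. The first 30 bases of the probes of the genes that the results turn on are given here, with positions on mouse build mm9 as in the files. Cldn2 and Aqp1 are shown because they were called, Folr1 and Kcne2 because over all 12 arrays they followed Ttr most and least closely.
Cldn2, A_52_P251450, chrX:136345244-136345303, plus strand: agtgtggaacatctgtgaccaaggtgttgt
Cldn2, A_66_P122511, chrX:136343889-136343948, plus strand: cccaaagccaagagtgagttcaactcatac
Aqp1, A_51_P125205, chr6:55298480-55298539, plus strand: ctgtgtatgtttctttgcaattgaatttca
Folr1, A_55_P1977792, chr7:109006846-109006905, minus strand: gtggtggggctctgacagcctctttaataa
Kcne2, A_55_P1979242, chr16:92298236-92298295, plus strand: gtaagtatccttaccacaaaacagtagcta
All of these probes were well above background on 12 of 12 arrays except Cldn2 A_66_P122511, which was so on 1 array, WT replicate 2 at 12 weeks, and was left out. Kcne2 and Clic6 lie 243 kb apart on chromosome 16. An annotation of exons and UTRs on mm9 was not used here.

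Promoters from RefSeq on build GRCm38.p6 were found for 6 of the 10 genes, with 10 start sites in all. A pair of motifs was searched on both strands in the 250 bases before each start: TAATCC, the core bound by homeodomain proteins of the Otx type, and TATAAA, the TATA box. Capitals mark the match in the sequences below, and no match of one motif overlaps one of the other. The Cldn2 promoter is shown because Cldn2 was called, and the Otx2 promoter because it was the only member promoter with TAATCC.
Cldn2, chrX:139800558-139800807, plus strand: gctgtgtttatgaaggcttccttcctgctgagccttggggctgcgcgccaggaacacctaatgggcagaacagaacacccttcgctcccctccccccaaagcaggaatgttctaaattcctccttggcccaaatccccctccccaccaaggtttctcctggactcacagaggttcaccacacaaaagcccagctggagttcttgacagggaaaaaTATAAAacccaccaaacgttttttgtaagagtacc
Otx2, chr14:48665110-48665359, minus strand: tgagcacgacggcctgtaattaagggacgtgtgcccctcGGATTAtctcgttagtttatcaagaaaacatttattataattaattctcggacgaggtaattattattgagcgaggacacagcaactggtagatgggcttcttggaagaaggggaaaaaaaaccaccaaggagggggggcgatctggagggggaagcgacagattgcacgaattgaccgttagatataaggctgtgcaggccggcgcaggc
The TATA box of Cldn2 begins 35 bases before the start. The Otx2 match lies on the opposite strand and begins 211 bases before the start. TAATCC was in 1 of the 10 member promoters, against 6.25% of all 32851 promoters of the same length, and TATAAA was in 3 of 10 (Cldn2, Otx2 and Slc4a5), against 12.4%. These matches describe letters and were tied to no measurement.

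Each value below is the log2 processed signal minus the log2 of the array's own 75th percentile, so that 0 is the level of that percentile on the same array. Values of different genes are not set against each other, because probes differ in brightness. The 12 arrays lay on 2 slides. Slide 1 held all WT arrays and KO replicates 1 and 2 at 6 weeks, and slide 2 held KO replicate 3 at 6 weeks and all KO arrays at 12 weeks, so KO and WT at 12 weeks were never on the same slide. Slide position gave a second split, in which column and genotype coincide at 6 weeks. The Il18 probe had values of -0.32 to -0.17 in KO arrays, against 1.51 to 1.93 in WT arrays, a change of -1.84 ± 0.10 at 6 weeks and -1.94 ± 0.10 at 12 weeks (limma, adjusted p = 2.3e-05 and 1.2e-05). The sources used here do not say whether this probe lies in the deleted part. The share of spots called well above background was 65.9% to 76.2% per array.

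Ttr, the defining transcript of the tissue, was far above the 75th percentile on every array. It had values of 5.98, 5.46 and 6.23 in KO brains and 6.45, 6.11 and 5.97 in WT brains at 6 weeks. At 12 weeks it had 6.62, 6.30 and 6.61 in KO brains and 6.36, 6.16 and 6.36 in WT brains. KO replicate 2 at 6 weeks was the lowest array for Ttr and for each of the other members, 10 of 10 in all.

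**Figure D1:**
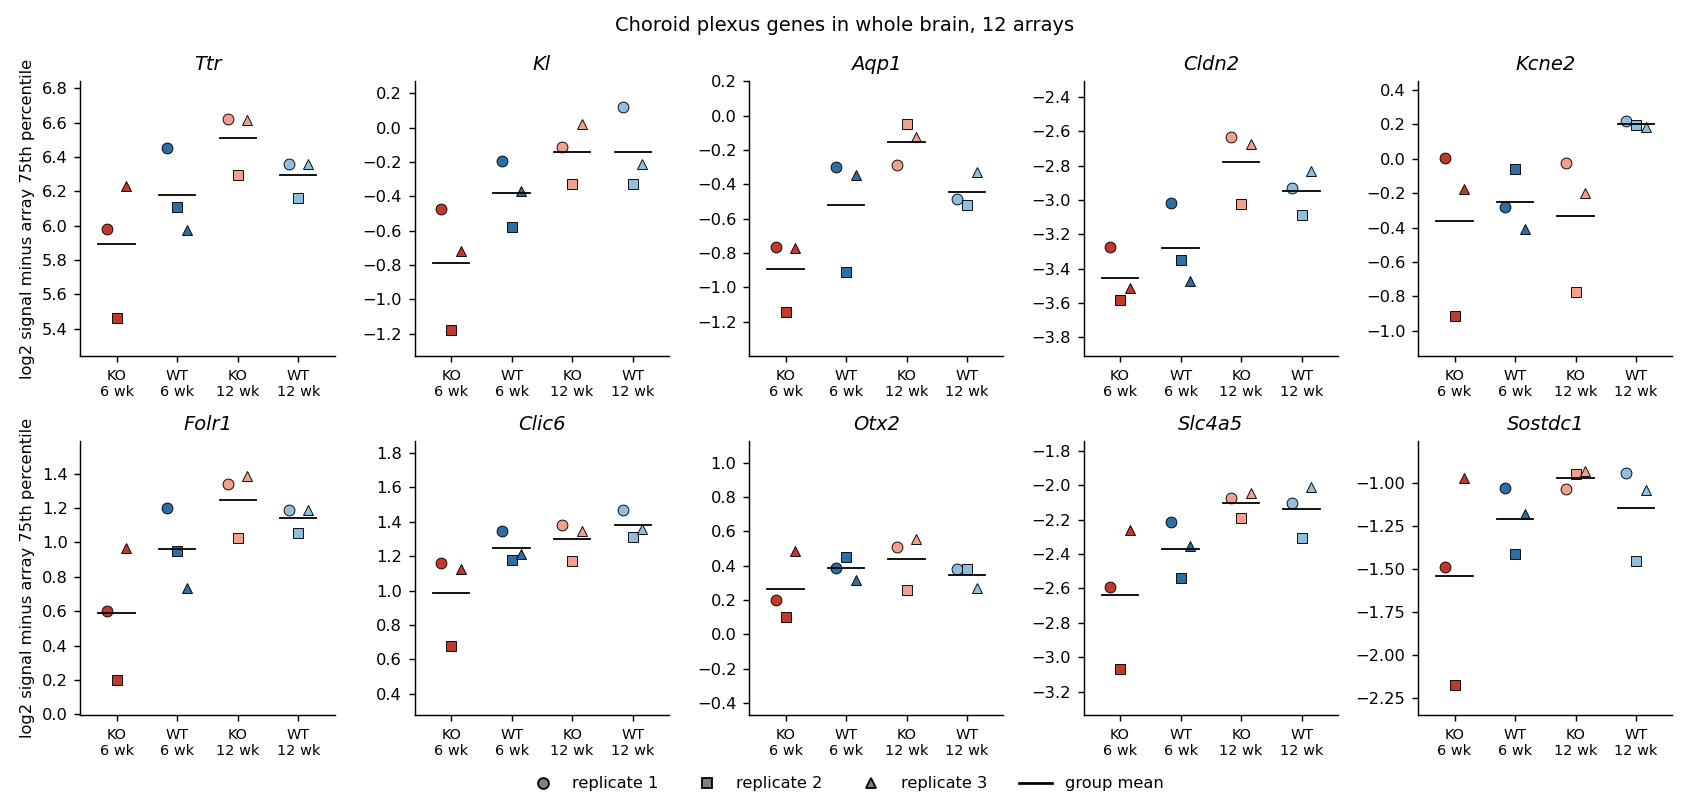
Values of the 10 choroid plexus genes on the 12 arrays. Each panel is 1 gene, each point 1 array (log2 processed signal minus the array's 75th percentile, every panel spanning the same range of log2 units), symbols give the replicate number and bars the group mean. The square of KO at 6 weeks is the lowest point in 10 of 10 panels, and the KO mean at 12 weeks is the highest of the 4 group means in 7 of 10.

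The group means had a common order in most members. KO at 6 weeks was the lowest of the 4 groups in 10 of 10 genes, and KO at 12 weeks was the highest in 7 of 10. For Ttr the means were 5.89 ± 0.39 in KO and 6.18 ± 0.25 in WT at 6 weeks, and 6.51 ± 0.18 in KO and 6.29 ± 0.11 in WT at 12 weeks (SD, n = 3 each). Aqp1, Cldn2, Folr1, Slc4a5 and Sostdc1 had the same order as Ttr, with KO lowest and WT next at 6 weeks, then WT and last KO at 12 weeks. Kcne2, Otx2, Clic6 and Kl departed from it. None of the members was called in KO against WT at either age or in WT at 12 against 6 weeks, so neighbouring groups in this order were not separated by a test.

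The first comparison asked how these genes differ in KO brains at 6 weeks. All 10 were lower on average in KO, with a median change of -0.28 against 0.04 over all genes tested, and 0 of 10 were called by limma's moderated test with Benjamini-Hochberg adjustment over all genes, against 0.925% of all genes. At an unadjusted p under 0.05 it was 1 of 10 (Aqp1), against 18.5%. Folr1, the folate receptor, had values of 0.60, 0.20 and 0.97 in KO, against 1.20, 0.95 and 0.73 in WT, a change of -0.37 ± 0.19 (adjusted p = 0.314). Kl had -0.48, -1.18 and -0.72 in KO, against -0.19, -0.58 and -0.37 in WT (-0.41 ± 0.19, adjusted p = 0.271). In both genes the KO arrays overlap the WT arrays, and KO replicate 2 is the lowest.

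Aqp1, the water channel, had the lowest adjusted p of the members at this age. It had -0.77, -1.15 and -0.77 in KO, against -0.30, -0.91 and -0.35 in WT (-0.38 ± 0.16, adjusted p = 0.255). Its KO arrays overlap WT replicate 2, which stands below the other WT arrays. Clic6 was the only member whose groups did not overlap, with 1.16, 0.68 and 1.13 in KO, against 1.34, 1.18 and 1.21 in WT (-0.26 ± 0.12, adjusted p = 0.297), while groups did not overlap for 23.7% of all genes.

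Sostdc1, the secreted antagonist, spread most widely of the members in KO. It had -1.48, -2.17 and -0.97 in KO, against -1.02, -1.41 and -1.18 in WT (-0.34 ± 0.25, adjusted p = 0.480). Slc4a5, the bicarbonate transporter, had -2.59, -3.07 and -2.26 in KO, against -2.21, -2.54 and -2.36 in WT (-0.27 ± 0.18, adjusted p = 0.415). Without KO replicate 2 the difference was -0.02 for Sostdc1 and -0.06 for Slc4a5, and it was -0.07 for Ttr.

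The other members at 6 weeks also had overlapping groups. Ttr differed by -0.29 ± 0.19 (adjusted p = 0.422), Cldn2 by -0.18 ± 0.15 (adjusted p = 0.524), Otx2 by -0.12 ± 0.11 (adjusted p = 0.553) and Kcne2 by -0.11 ± 0.24 (adjusted p = 0.827). Cldn2 had -3.27, -3.58 and -3.51 in KO, against -3.02, -3.35 and -3.47 in WT, and Otx2 had 0.20, 0.10 and 0.48 in KO, against 0.39, 0.45 and 0.32 in WT. When slide was a term of the fit the comparison rested on KO replicates 1 and 2. The member median was then -0.44 and 7 of 10 had an unadjusted p under 0.05, against 15.8% of all genes, yet 0 of 10 were called, against 0.498% of all genes (lowest adjusted p = 0.176). With slide column as a block, the changes were -0.44 for Aqp1, -0.30 for Folr1, -0.21 for Slc4a5, -0.19 for Ttr and -0.15 for Cldn2. They were -0.12 for Clic6, -0.08 for Kcne2, -0.07 for Otx2 and -0.03 for Kl and Sostdc1. Only Aqp1 was then lower than without a block. Column and genotype coincide at 6 weeks, so this estimate rests on the older WT arrays. Of these only replicate 1 shared a column with the WT arrays at 6 weeks. A bulk sample cannot tell fewer choroid plexus cells from less RNA per cell, here or in the results that follow.

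**Figure D2:**
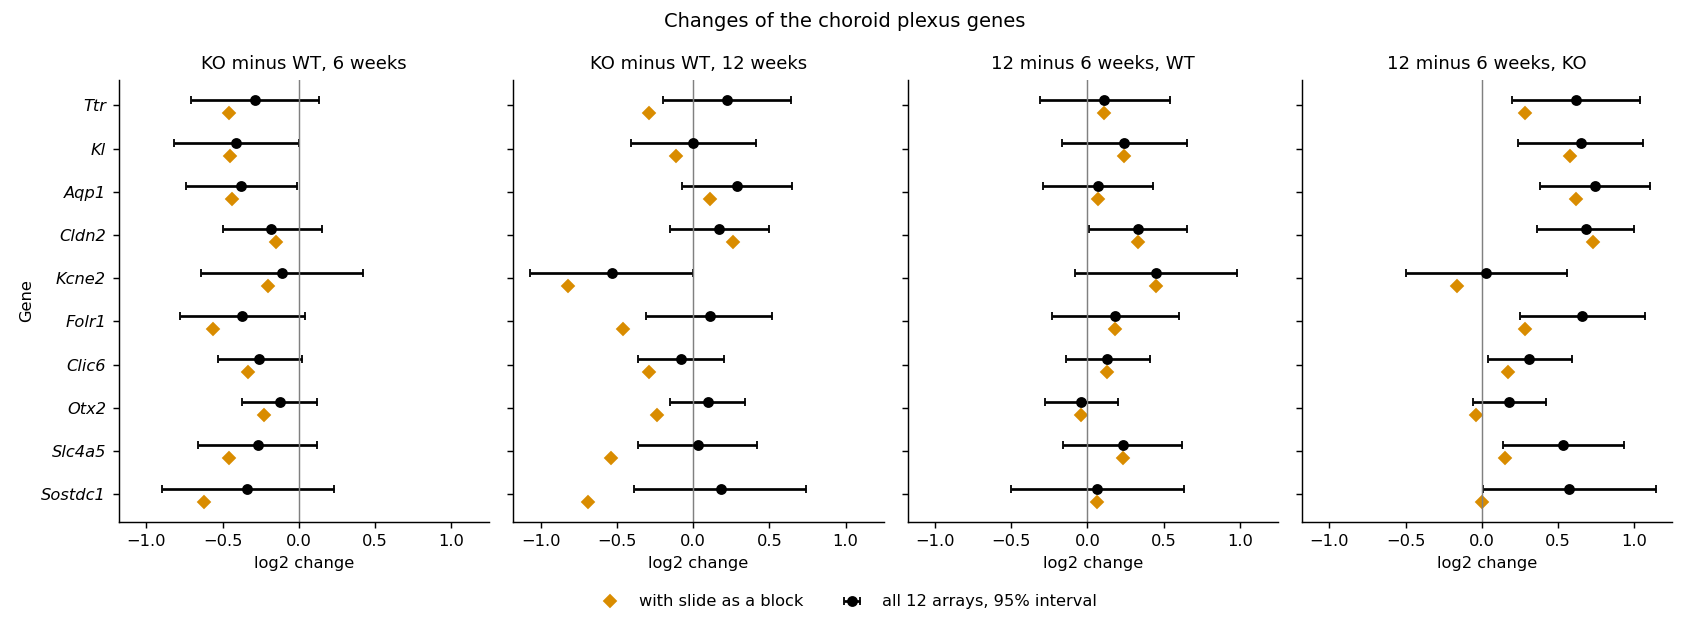
Log2 changes of the 10 genes in the 4 comparisons of 2 groups. Black points are the changes over all 12 arrays with 95% intervals, and orange diamonds are the changes with slide as a block, drawn without an interval. In KO at 12 against 6 weeks the black points of 10 of 10 genes are above 0, and the diamonds lie closer to 0 than the points except for Cldn2 (0.73 against 0.68) and Kcne2 (-0.16 against 0.03).

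At 12 weeks the members had no common direction between genotypes. Of the 10, 7 were higher and 3 lower on average in KO, the median change was 0.10 against 0.02 over all genes, and 0 of 10 were called by limma, while 33.0% of all genes were. At an unadjusted p under 0.05 it was 1 of 10 (Kcne2), against 45.5%. Kcne2, the potassium channel subunit, had the lowest adjusted p. It had values of -0.02, -0.78 and -0.20 in KO, against 0.22, 0.20 and 0.18 in WT, a change of -0.53 ± 0.24 (adjusted p = 0.108). Its KO arrays lie below all WT arrays, and KO replicate 2 stands lowest.

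Aqp1 was the other member whose groups did not overlap, as groups did not for 52.4% of all genes. It had -0.29, -0.05 and -0.12 in KO, against -0.49, -0.52 and -0.33 in WT (0.29 ± 0.16, adjusted p = 0.188). The KO arrays are all above the WT arrays. Cldn2 had -2.63, -3.03 and -2.68 in KO, against -2.93, -3.09 and -2.83 in WT (0.17 ± 0.15, adjusted p = 0.380), with overlap.

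Folr1 had 1.34, 1.02 and 1.39 in KO, against 1.19, 1.06 and 1.19 in WT (0.11 ± 0.19, adjusted p = 0.686). Slc4a5 had -2.07, -2.19 and -2.05 in KO, against -2.10, -2.31 and -2.01 in WT (0.03 ± 0.18, adjusted p = 0.896). In both genes KO replicate 2 and WT replicate 2 are the lowest arrays of their groups. Sostdc1 had -1.03, -0.94 and -0.93 in KO, against -0.94, -1.45 and -1.04 in WT, where replicate 2 stands apart.

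Clic6 had 1.38, 1.17 and 1.35 in KO, against 1.47, 1.31 and 1.36 in WT (-0.08 ± 0.12, adjusted p = 0.647). Otx2 had 0.51, 0.26 and 0.56 in KO, against 0.38, 0.38 and 0.27 in WT (0.10 ± 0.11, adjusted p = 0.519). Kl had -0.12, -0.33 and 0.02 in KO, against 0.12, -0.33 and -0.21 in WT. The groups overlap in all 3.

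The largest of the remaining changes at this age were 0.22 ± 0.19 for Ttr (adjusted p = 0.398) and 0.18 ± 0.25 for Sostdc1 (adjusted p = 0.620). Kl had a change of 0.00 ± 0.19 (95% interval -0.41 to 0.41). Slide and genotype cannot be told apart at 12 weeks from arrays of that age. With slide as a block, an estimate that rests on KO at 6 weeks, the median change was -0.29 and 2 of 10 were positive.

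With age in wild type most members were slightly higher. Of the 10, 9 were higher on average at 12 weeks, the median change was 0.16 against 0.00 over all genes, and 0 of 10 were called by limma, against 0.638% of all genes. At an unadjusted p under 0.05 it was 1 of 10 (Cldn2), against 14.7%. Kcne2 had 0.22, 0.20 and 0.18 at 12 weeks, against -0.28, -0.06 and -0.41 at 6 weeks (0.45 ± 0.24, adjusted p = 0.419). It was the only member without overlap between these ages, as were 24.8% of all genes. Cldn2 had the lowest adjusted p (0.33 ± 0.15, adjusted p = 0.326), with -2.93, -3.09 and -2.83 at 12 weeks, against -3.02, -3.35 and -3.47 at 6 weeks. All of these WT arrays were on slide 1. Replicates 2 and 3 at 12 weeks were in the other slide column from the rest of them. These also had more spots well above background (76.2% and 74.0%, against 65.9% to 66.8%). With slide column as a block only replicate 1 stood for 12 weeks. The change was then 0.50 for Kl (0.24 without the block) and 0.26 for Sostdc1 (0.06). Only Aqp1 had a smaller change than without the block (0.03 against 0.07).

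Without slide in the fit, the widest shift of the choroid plexus genes came with age in knockout. All 10 had a positive change, with a median of 0.60 against -0.01 over all genes, and 2 of 10 were called higher, Cldn2 and Aqp1, against 2.01% of all genes called and 1.09% called higher. Cldn2, the pore-forming claudin, had -2.63, -3.03 and -2.68 at 12 weeks, against -3.27, -3.58 and -3.51 at 6 weeks. It rose 1.60-fold, a log2 change of 0.68 ± 0.15 (adjusted p = 0.0479). Aqp1, the water channel, had -0.29, -0.05 and -0.12 at 12 weeks, against -0.77, -1.15 and -0.77 at 6 weeks. It rose 1.67-fold, a log2 change of 0.74 ± 0.16 (adjusted p = 0.0499). In both genes every array at 12 weeks is above every array at 6 weeks.

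Both adjusted values lie just inside the threshold. When each of the 6 KO arrays was left out in turn, Aqp1 passed in 1 of 6 fits and Cldn2 in 2 of 6, with adjusted p up to 0.198 and 0.191 in the other fits. Taking slide into the fit leaves only KO replicate 3 to stand for 6 weeks. Cldn2 then had a change of 0.73 (adjusted p = 0.406) and Aqp1 of 0.62 (adjusted p = 0.545), and 0 of 10 were called, against 0.0717% of all genes. Cldn2 and Aqp1 were also the 2 of 10 with an unadjusted p under 0.05 in that fit, against 8.17%.

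The carrier and receptor genes had changes of a like size in KO that did not pass. Ttr had a change of 0.62 ± 0.19 (adjusted p = 0.0874). Folr1 had 1.34, 1.02 and 1.39 at 12 weeks, against 0.60, 0.20 and 0.97 at 6 weeks (0.66 ± 0.19, adjusted p = 0.0749). Kl had -0.12, -0.33 and 0.02 at 12 weeks, against -0.48, -1.18 and -0.72 at 6 weeks (0.65 ± 0.19, adjusted p = 0.0768). The ages do not overlap in any of these 3 genes. Counting all members, 7 of 10 had no overlap, against 26.4% of all genes. The members were correlated across arrays (median r of 0.77 over pairs), so counts of members, here and in other comparisons, are not counts of independent observations.

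Among the ion transport genes, Slc4a5 had -2.07, -2.19 and -2.05 at 12 weeks, against -2.59, -3.07 and -2.26 at 6 weeks (0.53 ± 0.18, adjusted p = 0.0995). Clic6 had 1.38, 1.17 and 1.35 at 12 weeks, against 1.16, 0.68 and 1.13 at 6 weeks (0.31 ± 0.12, adjusted p = 0.146). Neither overlaps between ages. Kcne2 had -0.02, -0.78 and -0.20 at 12 weeks, against 0.00, -0.92 and -0.17 at 6 weeks, a change of 0.03 ± 0.24 with a 95% interval of -0.50 to 0.56.

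Otx2, the transcription factor, had 0.51, 0.26 and 0.56 at 12 weeks, against 0.20, 0.10 and 0.48 at 6 weeks (0.18 ± 0.11, adjusted p = 0.315). Sostdc1 had -1.03, -0.94 and -0.93 at 12 weeks, against -1.48, -2.17 and -0.97 at 6 weeks (0.57 ± 0.25, adjusted p = 0.180). In both, KO replicate 3 at 6 weeks lies among the arrays at 12 weeks, with which it shares slide 2. With slide as a block the member median fell to 0.23, against -0.05 over all genes, and the change was 0.28 for Ttr, 0.28 for Folr1, 0.15 for Slc4a5 and 0.00 for Sostdc1.

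A test of whether the genotype effect differed between ages called 0 of 10 members by limma, against 0.189% of all genes, and 1 of 10 (Aqp1) at an unadjusted p under 0.05, against 19.6%. The estimate was positive in 9 of 10, with a median of 0.38 against -0.01 over all genes. Aqp1 had the lowest adjusted p (0.67 ± 0.23, adjusted p = 0.183), followed in size by Sostdc1 (0.51 ± 0.36) and Ttr (0.50 ± 0.27). The age change in KO was thus not shown to differ from that in WT for any member.

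Genes with a pair of kept probes gave a check within the gene. The Sostdc1 probes correlated at 0.888 over the 12 arrays, the Folr1 probes at 0.842 and the Slc4a5 probes at 0.608. The dimmer Folr1 probe (A_52_P584335) changed by 0.53 ± 0.26 in KO with age and the second Sostdc1 probe (A_55_P2158121) by 0.46 ± 0.19, against 0.66 and 0.57 for the probes used. In other comparisons they differed more: the dimmer Folr1 probe gave -0.13 in KO against WT at 6 weeks (-0.37 for the probe used), and the second Sostdc1 probe gave -0.04 in KO against WT at 12 weeks (0.18) and 0.26 with age in WT (0.06). The dimmer Slc4a5 probe (A_55_P2032548) gave 0.29 ± 0.23 with age in KO, smaller than the 0.53 of the probe used. In KO against WT at 6 weeks it gave 0.01 ± 0.23, where the probe used was lower in KO (-0.27). With age in WT it gave 0.33 ± 0.23, larger than the 0.23 of the probe used.

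The members were high and low together from array to array, also among animals of the same group. After each group's mean was taken off, KO replicate 2 at 6 weeks was below its group in 10 of 10 members, by 0.37 on average (mean deviation -0.37, from -0.63 to -0.13). KO replicates 1 and 3 at 6 weeks were each above the group mean in 9 of 10 (mean deviations 0.13 and 0.24). Deviations cancel out within a group, so a low array by itself puts the others above the mean. KO at 6 weeks was the only group split over both slides, so its deviations also hold any difference between slides. KO replicate 3 at 12 weeks was above its group in 10 of 10 (mean 0.09) and KO replicate 2 below in 8 of 10 (mean -0.16). In WT, replicate 1 at 6 weeks was above in 9 of 10 (mean 0.16) and replicate 2 at 12 weeks below in 9 of 10 (mean -0.11). WT replicate 2 at 6 weeks was below in 8 of 10, and WT replicate 1 at 12 weeks above in 9 of 10. KO replicate 1 at 12 weeks was above in 8 of 10. The sign was less shared on WT replicate 3 at 6 weeks (4 of 10 above) and WT replicate 3 at 12 weeks (6 of 10 above).

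**Figure D3:**
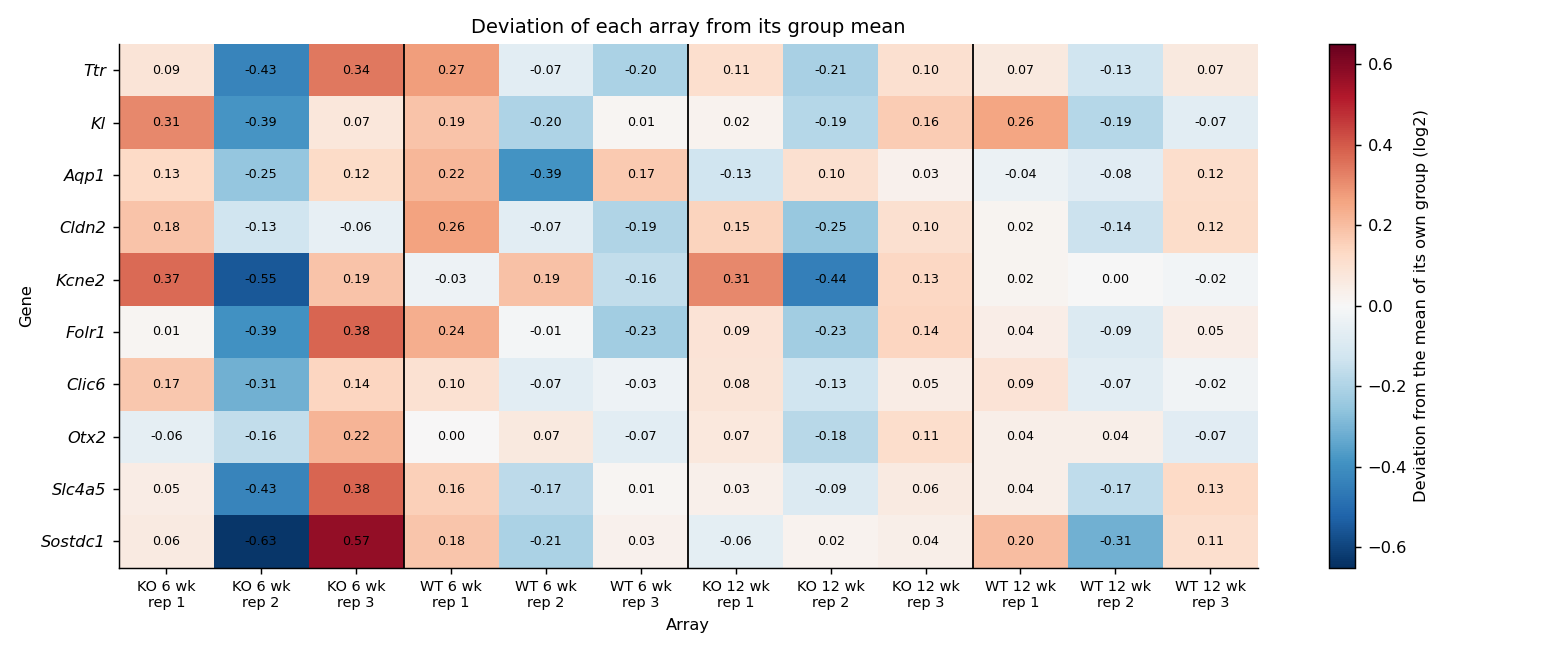
Deviation of each gene from the mean of its own group on each of the 12 arrays, in log2 units, blue below and red above. The column of KO replicate 2 at 6 weeks is blue throughout (-0.63 to -0.13), that of KO replicate 3 at 12 weeks is red throughout, and the other columns are mixed.

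Over the 45 pairs of members the median correlation was 0.77 across the 12 arrays (0.10 to 0.98), and 29 pairs were over 0.7. Taken on deviations from the group means it was 0.67 (-0.06 to 0.98), where Ttr correlated at 0.730 with Kcne2 and least with Aqp1 (0.440), and over the 8 arrays of slide 1 it was 0.82 (0.42 to 0.98). All values of an array share 1 scaling factor.

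Ttr was correlated with the other 9 members by permutation test, with p adjusted over these 9 relations, and 8 of 9 passed for both r and rho. The arrays were shuffled across groups and slides. These p-values therefore do not separate group and slide differences from covariation among animals of the same group. With quantile normalization 9 of 9 passed for r and 4 of 9 for rho, and with the median of the array in place of the 75th percentile 8 of 9 passed for both. Folr1 followed it most closely (r = 0.98, rho = 0.96, permutation p = 1.0e-05, the smallest that 100000 resamples can give, and 5.0e-05 for rho). Slc4a5 came next (r = 0.93, permutation p = 5.0e-05; rho = 0.87, permutation p = 4.2e-04), then Sostdc1 (r = 0.88, permutation p = 6.9e-04; rho = 0.76, permutation p = 0.00569). After adjustment these 3 had p = 9.0e-05, 2.2e-04 and 0.00155 for r by permutation.

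Clic6 (r = 0.86, rho = 0.76), Kl (r = 0.85, rho = 0.84) and Cldn2 (r = 0.85, rho = 0.90) lay close behind, with permutation p of 0.00134, 0.00108 and 1.8e-04 for r and 0.00548, 0.00150 and 3.2e-04 for rho. Aqp1 (r = 0.77, rho = 0.73) and Otx2 (r = 0.77, rho = 0.67) had permutation p of 0.00292 and 0.00307 for r and 0.00965 and 0.0194 for rho. Kcne2 did not pass over all arrays (r = 0.49, permutation p = 0.113; rho = 0.27, permutation p = 0.392). The adjusted p for r of these 6 ran from 5.4e-04 for Cldn2 to 0.113 for Kcne2 by permutation.

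The correlations were lower when the extreme arrays were left out. Without the 2 arrays farthest from the Ttr median of 6.26, which were KO replicate 2 at 6 weeks (5.46) and KO replicate 1 at 12 weeks (6.62), 4 of 9 passed for r: Folr1 (r = 0.95), Slc4a5 (r = 0.82), Cldn2 (r = 0.81) and Sostdc1 (r = 0.73). Kl (r = 0.65), Clic6 (r = 0.61), Aqp1 (r = 0.59) and Otx2 (r = 0.51) then missed the threshold for r. Kl still passed for rho (rho = 0.77, permutation, adjusted p = 0.0229), and Kcne2 had r = -0.02. Leaving out the extremes of Ttr narrows its range and by itself lowers r. The drop therefore cannot tell whether a relation depends on those arrays. Within slide 1, with 8 arrays and an exact permutation test, r ran from 0.73 for Otx2 to 0.98 for Folr1 and 9 of 9 passed for r (adjusted p = 8.9e-04 to 0.0356). For rho 6 of 9 passed there, and Aqp1, Kcne2 and Otx2 did not (exact permutation, adjusted p = 0.0892, 0.132 and 0.129). Slide 2 held 4 arrays, too few for a correlation.

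**Figure D4:**
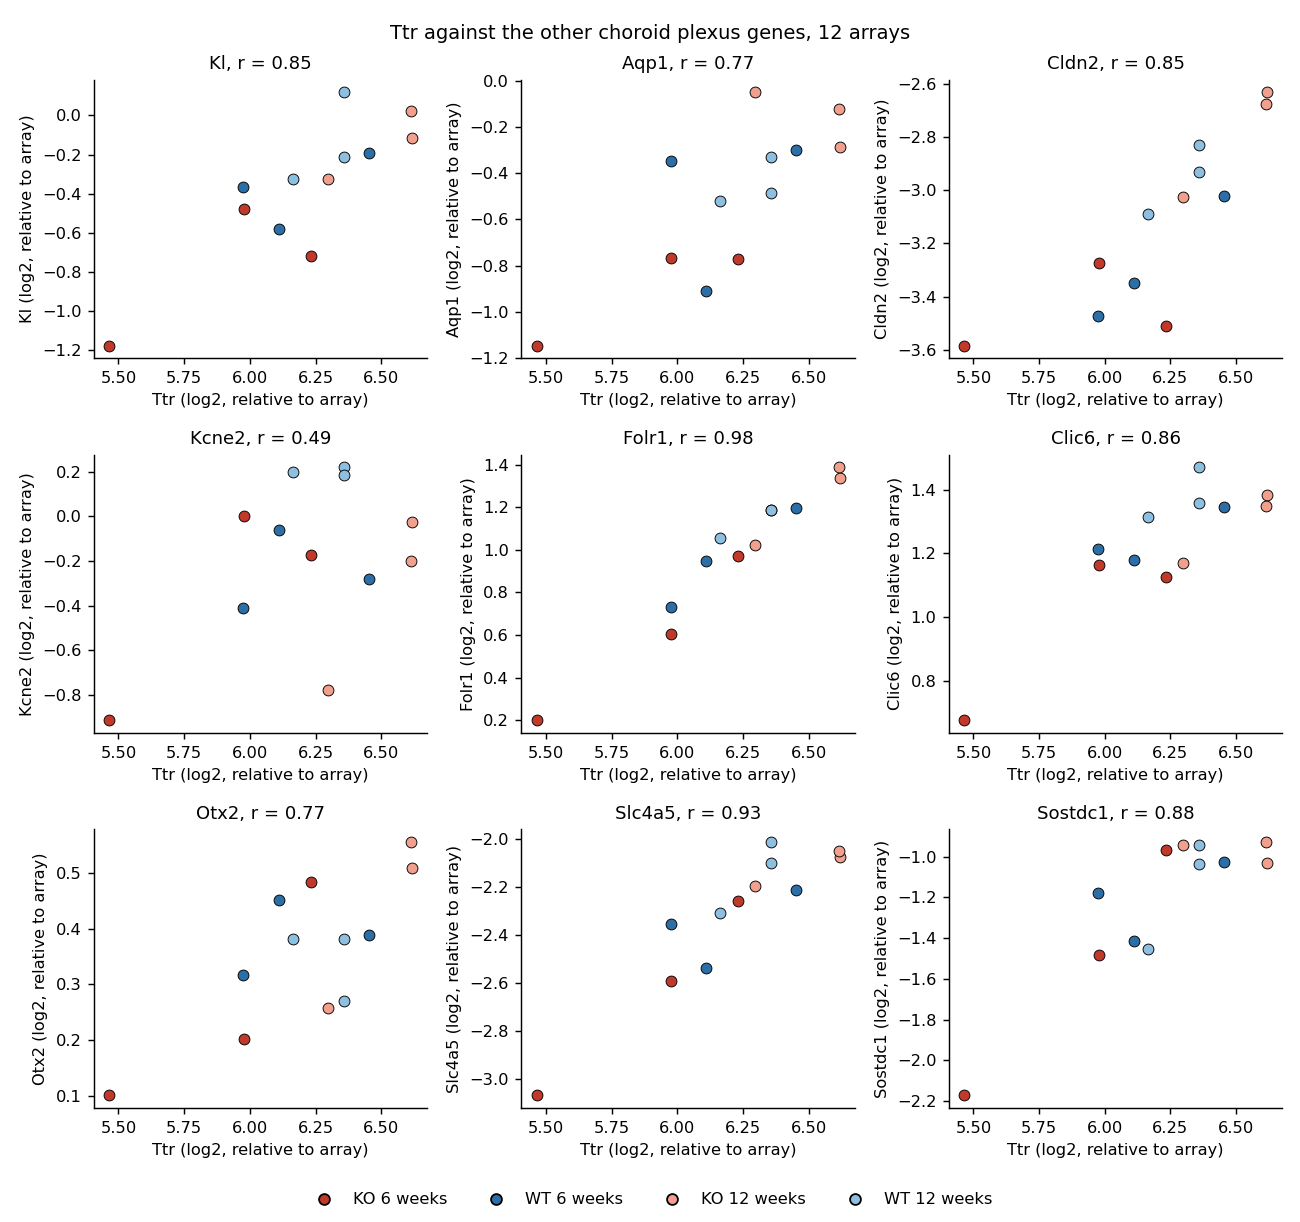
Ttr (x axis) against each of the other 9 members (y axis) on the 12 arrays, both in log2 units relative to the array's 75th percentile. The lowest point in every panel is KO replicate 2 at 6 weeks, and the points lie along a line for Folr1 (r = 0.98) and scatter for Kcne2 (r = 0.49).

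Other genes of the choroid plexus, of which 37 of 38 listed were measured, followed the members less closely. Their deviations correlated with the mean deviation of the 10 members at a median r of 0.55 (-0.54 to 0.88), with 27.0% over 0.7, against a median of 0.03 and 2.67% over 0.7 for the 26441 other genes with a value on every array. Krt8 (r = 0.88) and Krt18 (r = 0.87), keratins of simple epithelia, Enpp2 (r = 0.87), which encodes the secreted enzyme autotaxin, and Lbp (r = 0.86) were among the closest, named here after their values were seen. The medians of the lists for other tissues were 0.20 for ependymal and ciliary genes (14 genes), 0.15 for meninges and stroma (14), 0.18 for endothelium (9), -0.31 for blood (5), 0.24 for pituitary (3) and 0.40 for pineal (2).

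**Figure D5:**
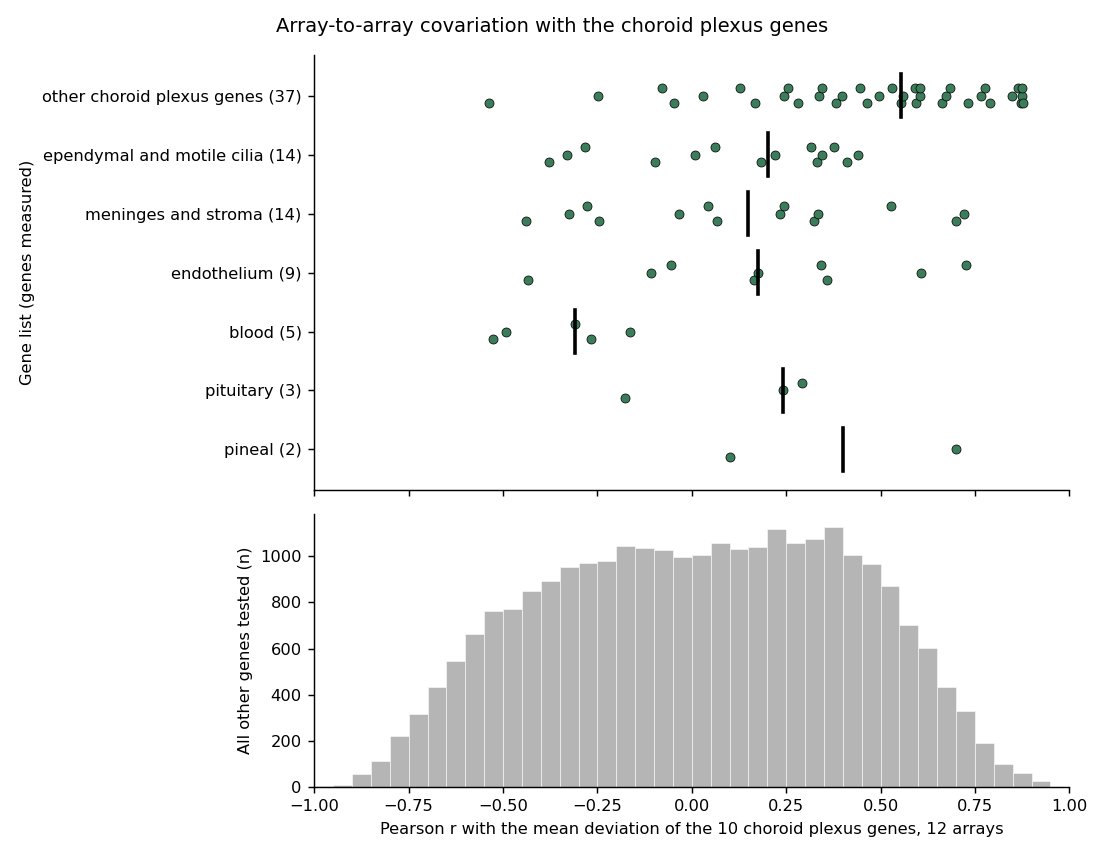
Pearson r of each gene with the mean deviation of the 10 choroid plexus genes over the 12 arrays. The upper panel has 1 point per gene with a bar at the list median, and the lower panel counts all other genes tested by r. The other choroid plexus genes lie to the right (median 0.55), while all other genes centre near 0 (median 0.03).

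Members aside, the genes most like them on these arrays included Lrrc14 (r = 0.945), Ube2ql1 (r = 0.939) and Sv2a (r = 0.934), a synaptic vesicle protein. Cdk14 (r = 0.931), Ltbp4 (r = 0.927), Clcn7 (r = 0.917), a lysosomal chloride transporter, and Acox2 (r = 0.916) followed. They were picked for their high r, and their deviations were small, with an SD of 0.07 to 0.19.

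In the same comparisons the other choroid plexus genes moved as follows. At 6 weeks in KO against WT 0 of 37 were called, with a median of -0.25. With slide in the fit 1 was called lower, Car14 (-0.47, adjusted p = 0.0315), a carbonic anhydrase named here after its values were seen. At 12 weeks 4 were higher and 3 lower in KO, 7 of 37 where 33.0% of all genes were called. Among them were Cldn1 (-1.04 ± 0.29, adjusted p = 0.0212) and Cgnl1 (-0.93 ± 0.15, adjusted p = 0.00482), which encode junction proteins, Slc29a4 (0.58 ± 0.13, adjusted p = 0.0116), a monoamine transporter, and Mia1 (0.48 ± 0.15, adjusted p = 0.0358). None of these 7 passed once slide entered the fit.

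With age in WT 0 of 37 passed and 30 were positive, with a median of 0.15. With slide in the fit 1 was called lower at 12 weeks, again Car14 (-0.37, adjusted p = 0.0344). With age in KO 32 of 37 were positive with a median of 0.30, and 2 were called, Krt18 (0.89 ± 0.18, adjusted p = 0.0414) and Wfdc2 (0.63 ± 0.13, adjusted p = 0.0437). Once slide entered the fit neither passed (adjusted p = 0.547 and 0.391).

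Genes of neighbouring tissues also moved with age in KO. Of 14 ependymal genes 3 were called higher, Tmem212 (0.57 ± 0.11), Dynlrb2 (0.51 ± 0.10) and Tekt1 (0.41 ± 0.07), genes of motile cilia, against 1.09% of all genes. Of 14 genes of meninges and stroma 3 were called higher, Islr (0.66 ± 0.13), Fmod (0.66 ± 0.14) and Crabp2 (0.54 ± 0.09), against the same 1.09%. None of these passed with slide in the fit (adjusted p = 0.370 to 0.510). Changes were positive for 11 of 14 genes in each list, with medians of 0.24 for ependymal and 0.29 for meningeal genes. The ependymal genes that were lower were Rsph4a (-0.26), Ccdc39 (-0.10) and Rarres2 (-0.01). The meningeal ones were Col3a1 (-0.44), Col1a1 (-0.11) and Lum (-0.09). Levels were summed over the 14 genes of each list, relative to the array's 75th percentile. The ependymal sums in KO were 12.3 to 13.6 at 12 weeks, against 10.3 to 11.2 at 6 weeks. The meningeal sums were 35.3 to 39.0 at 12 weeks, against 29.2 to 31.9 at 6 weeks. In WT the meningeal sums were 34.0 to 39.9 at 12 weeks, against 32.0 to 34.5 at 6 weeks. With age in WT 11 of 14 meningeal genes were positive (median 0.21), and Slc6a13 was called higher (0.69 ± 0.09, limma, adjusted p = 0.0124). Slc6a13 and Aldh1a2 (0.65) were called there with slide in the fit (adjusted p = 0.0115 and 0.0407). Of the ependymal genes 10 of 14 were positive in WT (median 0.05) and 0 were called.

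KO replicate 2 at 6 weeks, the lowest array for the members, also had the lowest ependymal sum (10.3) and the lowest meningeal sum (29.2) of the 12 arrays. Its endothelial sum of 44.5 was the lowest of its group (45.8 and 49.9 on replicates 1 and 3), but above the WT sums at 6 weeks (35.8 to 38.5). By mean deviation from the group it was the lowest of the 12 arrays for endothelial genes (-0.08) and for ependymal genes (-0.08). For meningeal genes it had -0.11, and WT replicate 1 at 12 weeks was lower (-0.13). The blood sum of KO replicate 2 at 6 weeks was 82.6, the highest of its group. How much of the members' differences came with the share of ventricular tissue in a brain sample was not tested.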

How the data were processed

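The authors deposited 1 scan file per array and a value table, and the scans were read, by the submitters' processing notes, in Agilent Feature Extraction version 10.7.3.1. Per the file headers the signals used are fluorescence intensity in arbitrary units, and other deposited columns mark with 0 or 1 whether a spot is well above background, saturated or an outlier. The deposited value table differed from the processed intensity by at most 0.498%. Here outlier spots (107 to 220 per array) were left out, the processed signal was put on a log2 scale, and the log2 of its 75th percentile over the 59305 non-control spots was subtracted. The filter on dim probes kept those that were well above background in every array (3) of 1 group or more, and 1 probe, the brightest on average, was kept per gene name.

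All 26497 genes were fitted with limma 3.58.1 in R 4.3.3 (lmFit, eBayes), with 1 mean per group over 12 arrays and 8 residual degrees of freedom. Tests were two-sided, with Benjamini-Hochberg adjustment within each of 5 comparisons and a call at adjusted p under 0.05. Errors after ± are standard errors unless named SD. Correlations were tested in Python 3.11.15 with numpy 2.4.6. Array number, and signal over background, limit the precision. The titles call the replicates biological.

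The members, lists and tests were chosen with earlier results of these data known. All members are named, of other lists up to 4 called genes per comparison by size of change, and the 8 genes most like the members, 1 of which is not reported here. Same-numbered replicates correlated at -0.20 to 0.10 between groups, so the numbers do not pair the arrays.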

Additional observations from a re-analysis of the deposited data

How the results depend on the processing

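The number of the 10 genes called with age in KO, 2 as reported, depends on the setting. It was 0 with all probes fitted singly, with no filter on dim probes, with only the groups compared, with slide as a block, fixed or random, with slide column as a block and with a replicate block, which also left 31 genes of all tested in place of 532. It was 1 with the deposited value table, the median of the array or quantile normalization, 4 with normexp or with eBayes by trend and robust, and 9 with array weights, which give KO replicate 3 at 6 weeks a weight of 0.20, the lowest of 12. Leaving out 1 array gave 0 to 8, the highest without KO replicate 3 at 6 weeks, when age and slide coincide in KO. At 12 weeks 1 member passed with normexp and 1 with only the groups compared, where 0 did as reported. The test of unequal genotype effects had 1 call with array weights. The replicate block changed no other call of a member. Of 9 correlations with Ttr, 8 as reported, 4 passed for r without the 2 farthest arrays, and 6 without KO replicate 2 at 6 weeks, a setting chosen after seeing the data. Kcne2 turned to -0.02 without the 2 farthest.

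Directions turned mainly under slide as a block. At 12 weeks KO against WT became -0.29 for Ttr, -0.46 for Folr1, -0.24 for Otx2, -0.54 for Slc4a5 and -0.69 for Sostdc1 with a fixed block, and 0.00, -0.14, -0.05, -0.21 and -0.19 with a random one. Also at 12 weeks, quantile normalization gave -0.07 for Ttr, the median of the array gave 0.04 for Clic6, and Kl, near 0 as reported, was 0.12 (median), 0.08 (normexp), 0.01 (quantile), 0.09 (array weights) and 0.13 (slide column). At 6 weeks normexp gave 0.01 for Cldn2 and 0.02 for Kcne2. With age in KO a fixed slide block gave -0.16 for Kcne2, -0.04 for Otx2 and 0.00 for Sostdc1, and a random one -0.05 for Kcne2. The difference between ages became 0.00 for Otx2, -0.08 for Slc4a5 and -0.06 for Sostdc1 with a fixed block. With 1 array left out, Kcne2 ran from -0.29 to 0.17 at 6 weeks and from -0.25 to 0.25 with age in KO. Kl ran from -0.09 to 0.13 and Slc4a5 from -0.05 to 0.10 at 12 weeks. With age in WT, Aqp1 ran from -0.12 to 0.18 and Sostdc1 from -0.04 to 0.22. The cause was not tested.

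The median of all genes moved to 0.13 at 6 weeks and 0.14 at 12 weeks in KO against WT when arrays were scaled by their median, where it had been 0.04 and 0.02, and the member medians were then -0.18 and 0.22. Counts over all genes ranged widely over the settings without a left-out array: 54 to 593 at 6 weeks (245 as reported), 30 to 12645 at 12 weeks (8739), 28 to 729 with age in WT (169), 0 to 9884 with age in KO (532) and 17 to 6189 for the difference between ages (50).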

Other observations

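Pituitary hormone genes stood apart on 1 array, KO replicate 3 at 12 weeks. On it Pomc, the precursor of corticotropin, had 5.62, against 0.18 to 1.64 on the other 11 arrays. Cga, the common subunit of glycoprotein hormones, had 2.23, against -8.00 to -1.93. Prolactin (Prl) had 3.72, against -8.37 to 0.06, and growth hormone (Gh) had 2.86, against -8.68 to -0.48. Prl was well above background on 3 of 12 arrays and Gh on 4, so their low values are not levels. Cga was so on 9 of 12 arrays, and only its values on the remaining arrays are not levels. The next highest array for Gh, Prl, Pomc and Cga was KO replicate 1 at 12 weeks. The 10 choroid plexus genes were 0.09 above their group mean on KO replicate 3, and no cause was tested.

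The blood genes, 5 in number and led by haemoglobin, had summed levels of 91.5 to 152 in KO at 12 weeks, against 64.1 to 90.4 in WT at 12 weeks. Hba-a1 was called higher in KO at that age (0.70 ± 0.21, adjusted p = 0.0267 by limma), and so was Alas2 (0.71 ± 0.21, adjusted p = 0.0278). Neither passed with slide as a block (adjusted p = 0.552 and 0.664). Cldn5, a claudin of brain endothelium, was called higher in KO at 6 weeks (0.66 ± 0.09, adjusted p = 0.0136 by limma). It remained called with slide as a block (0.62, adjusted p = 0.0428). Slide column and genotype coincide at 6 weeks and cannot be told apart from arrays of that age.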
